A study of Mus musculus with 2 samples.

Results

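Basophils were selected on marker UMIs (unique molecular identifiers, each standing for 1 captured transcript) in single-cell RNA sequencing of mouse ear skin. A cell was taken as a basophil when it held at least 3 UMIs of Mcpt8, Prss34 and Cd200r3 together, at most 3 UMIs of the mast cell protease genes Cma1, Mcpt4 and Tpsb2, and at most 1 UMI of Cd3d, Cd3e and Cd3g. The rule found 204 basophils among 11665 cells kept in the allergic contact dermatitis (ACD) library and 2 among 12213 in the control library, 206 of 23878 in all. The levels of these 9 genes therefore describe how the cells were chosen and are no result.

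Basophils are rare granulocytes that circulate in blood and enter inflamed tissue. They carry the high-affinity IgE receptor, whose crosslinking releases histamine and lipid mediators and induces cytokines such as interleukin 4 and interleukin 13. They share the receptor and much of the granule content with tissue mast cells, but arise separately, live for days and use the transcription factors GATA2 and C/EBPα during their development.

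Both libraries came from ear skin of ICR mice aged 7 to 8 weeks. The ACD mice were sensitized on the dorsal skin with 1.0% DNFB (2,4-dinitrofluorobenzene, a skin-reactive hapten), challenged on the ears with 0.2% DNFB on day 6 and sampled after 60 hr, and the control mice gave ear skin without elicitation. Whether the skin of several animals was pooled is not given in the sources used here. Skin was digested with collagenase D and DNase1, dead cells were removed, and each condition was sequenced as 1 library. With 1 library per condition, no difference could be tested, and every interval given here is an exact 95% interval that covers counting error only.

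The control library held 12895 barcodes and the ACD library 13163, with median depths of 6758 and 7393 UMIs. The libraries had 50 cell barcode sequences in common, of which 1 belonged to an ACD basophil. Basophils made up 1.75% (1.52 to 2.00) of kept ACD cells and 0.0164% (0.00198 to 0.0591) of kept control cells. They held a median of 4061.5 UMIs and 1212.5 genes per cell, against 5872.5 UMIs and 1915 genes in the 4094 other ACD cells with at least 1 UMI of Ptprc, the pan-leukocyte gene for CD45. Drawn down to 2000 UMIs, basophils showed a median of 764 genes per cell and the other Ptprc-positive cells 947. Only 95 of the 204 basophils (46.6%) held a Ptprc UMI, whereas each comparison cell had to hold at least 1. A required UMI favours deeper cells, so the depths of the 2 sets are not on equal terms. In a digested tissue, fewer captured cells of a type and fewer cells in the skin cannot be told apart.

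**Figure D1:**
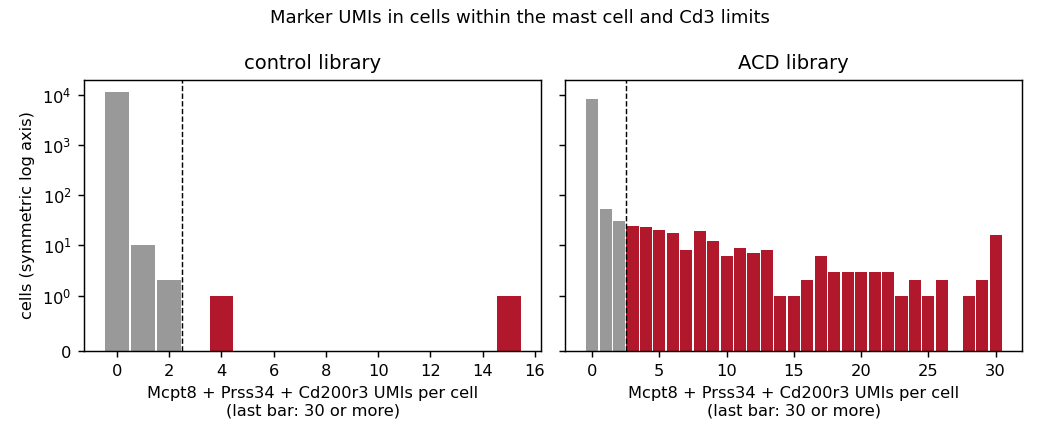
Number of kept cells (y axis, symmetric log scale) by the sum of Mcpt8, Prss34 and Cd200r3 UMIs (x axis, last bar 30 or more) in the control and ACD libraries, among cells within the mast cell and Cd3 limits. Red bars at 3 UMIs and above are the basophils, 2 cells in control and 204 in ACD, and in ACD the counts fall without a gap across the dashed limit.

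The marker sum ranged from 3 to 225 UMIs per basophil, with a median of 8. Mcpt8, which encodes a basophil granule serine protease, was found in 203 of the 204 cells, Cd200r3 in 124 and Prss34 in 11. The limit did not fall in a gap, since 24 cells just inside it held 3 marker UMIs and 30 cells just outside held 2. Levels are given in CPM, the UMI sum of a gene in a class scaled to 1000000 UMIs of that class. Hdc, whose enzyme makes histamine, stood at 5380 CPM in the cells with 3 marker UMIs, 3217 in those with 2 and 811 in the 54 cells with 1. Cells with 0 marker UMIs that were Ptprc-positive held 19.3. Cells just outside thus resembled those inside in these levels, and 30 cells with 1 or 2 marker UMIs and within the other limits were among the comparison cells.

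The label was checked on genes outside the rule. The rule limits mast cell protease and Cd3 UMIs, so low levels of other mast cell and T cell genes follow in part from the choice of cells. Gata2, Cyp11a1, Hdc and Grm6, a glutamate receptor gene used as a basophil marker, were all highest in basophils among the 6 classes compared. Cyp11a1 and Gata2 were also high in mast cell-like cells. Fcer1a, Ms4a2 and Cpa3 were instead highest in mast cell-like cells. Of these genes with Il3ra and Itga2, 9 in all, 7 were at least 4-fold higher in basophils than in the other Ptprc-positive cells and 0 lower. Over all 12179 genes compared, 1.46% were higher and 1.49% lower. The mast cell genes Tpsab1, Mrgprb1 and Mrgprb2, the neutrophil genes Retnlg, Csf3r and Ly6g, the eosinophil genes Prg2, Epx and Il5ra, and 8 of 12 phagocyte genes, C1qa, Csf1r and Flt3 among them, had 0 UMIs in the 204 cells. The other 4 phagocyte genes, which were Cd74, H2-Aa, H2-Ab1 and Adgre1, held 265 UMIs in basophils (268 CPM), with 3 or more in 16 cells (7.84%) and 68 in 1 cell. Fibroblast markers were found in more cells, with 3 or more UMIs in 47 of the 204 basophils (23.0%) and 474 in 1 cell. T and NK cell markers reached 3 UMIs in 8 basophils (29 at most), chondrocyte and neutrophil markers in 7 each (51 and 7 at most), and keratinocyte markers in 2 (49 at most). Of the 9 neutrophil genes, 6 had 0 UMIs in basophils, and the list held 114 UMIs. Of 7 compared with the other Ptprc-positive cells, 1 was at least 4-fold higher in basophils and 3 lower. Cxcr2, which also serves in the neutrophil-like gate, had 104 UMIs in basophils. The fibroblast list reached 3 UMIs in 33.8% of T cell-like cells, which were deeper, with a median of 6070 UMIs. All 6 fibroblast genes were detected in basophils, and their summed level was 3370 CPM against 2995 in T cell-like cells and 16095 in chondrocyte-like cells. In all, 56 basophils held 3 or more UMIs of some fibroblast, keratinocyte, chondrocyte, endothelial, erythroid, neutrophil, B or T cell list, and their part in the results was not tested beyond leaving them out.

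Basophils were then compared with the other Ptprc-positive ACD cells. The sums held 988731 UMIs in basophils and 30376807 in the other cells, of which 2747 (67.1%) were T cell-like. Of 12179 genes with at least 50 UMIs in both sets together, 178 were at least 4-fold higher in basophils (1.46% of the genes compared) and 181 at least 4-fold lower (1.49%), after 10 CPM were added on each side. Calls, list medians and ratios under other settings are on this scale, while ratios with an interval have nothing added. The median log2 ratio over all genes compared was -0.33, so most genes stood slightly lower in basophils. With median-of-ratios scaling, which moves that median by 0.29, the counts were 273 higher and 104 lower. The choice of cells used 9 of these genes, and genes that go with them differ by selection, so the counts are a description. The counts of each gene list below are to be read beside the shares of 1.46% and 1.49%. A single gene past 4-fold in a list is no result about that list.

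**Figure D2:**
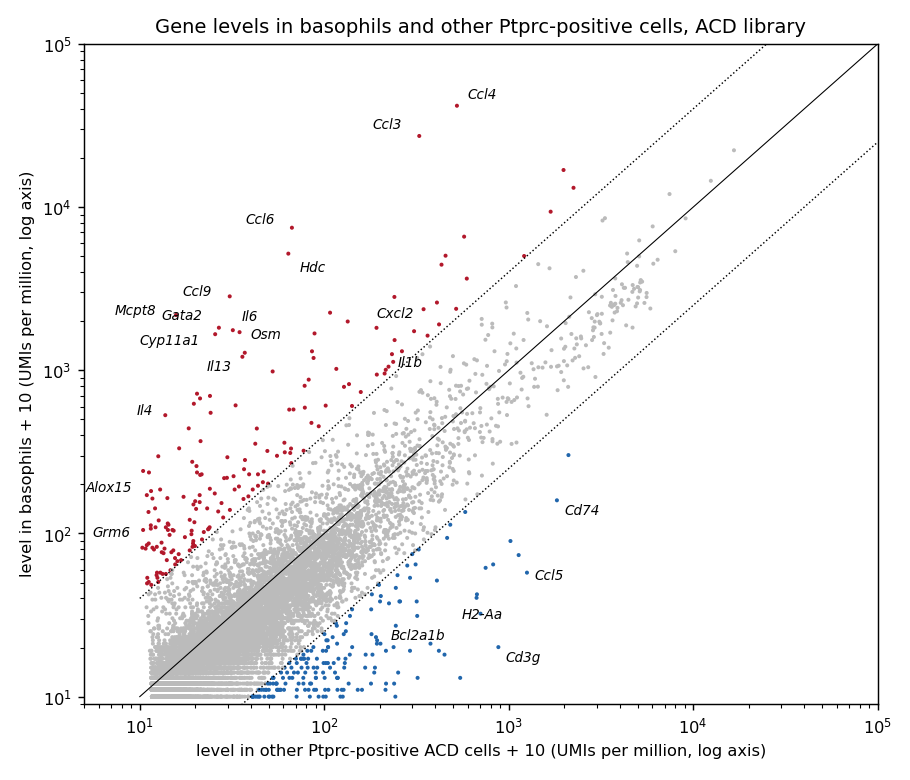
Level of each of the 12179 compared genes in basophils (y axis) against other Ptprc-positive ACD cells (x axis), in CPM plus 10, both on log axes. Red points are the 178 genes at least 4-fold higher, blue points the 181 at least 4-fold lower, dotted lines mark 4-fold, and Ccl4 and Ccl3 lie far above the diagonal at the highest levels.

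Ccl4 and Ccl3, which encode the chemokines MIP-1β and MIP-1α that attract monocytes and T cells, were the 2 genes with the most UMIs in basophils, above every other gene. Ccl4 stood at 41823 CPM in basophils and 514 in other Ptprc-positive cells, and Ccl3 at 27297 and 318. The comparison cells included 53 with at least 5 UMIs each of Hdc and Ccl6, 22 of them without a marker UMI. In the 4039 comparison cells with 0 marker UMIs, Ccl4 stood at 280.2 CPM and Ccl3 at 148, and against them the log2 ratio was 7.17 in place of 6.32 for Ccl4, 7.44 in place of 6.38 for Ccl3 and 7.47 in place of 6.34 for Hdc. Of 156 named genes, 9 moved by over 1.5-fold with these comparison cells, all upward, and the other 6 were Ccl6, Ccl9, Cyp11a1, Gata2, Mcpt8 and Osm. Mcpt8 had 0 UMIs in these comparison cells by their choice, so its rise was set in advance. Leaving out cells by the rule's markers also favours a rise in genes found with them. Together Ccl3 and Ccl4 were 6.91% of all basophil UMIs and 0.0832% of those of the other cells. Their part of a single cell's UMIs ran from 0% to 29.3% with a median of 6.99%, so the amount differed widely between cells.

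Ccl6 and Ccl9, chemokines of the same family that act through CCR1, followed. Ccl6 had 7471 CPM against 56.8, a log2 ratio of 7.04 (6.96 to 7.12), and Ccl9 had 2830 against 20.7, a log2 ratio of 7.09 (6.97 to 7.22). Both were also above their level in mast cell-like cells, at 3.20 and 6.40. Neutrophil-like cells shared Ccl6 at 2215 CPM but not Ccl9, at 4.97. Ccl5, a chemokine of T cells and the gene beside this group, went the other way with 47.5 against 1246 CPM. Ccl5 (83525778 to 83530518), Ccl9 (83572919 to 83578636), Ccl6 (83587882 to 83593087), Ccl3 (83647844 to 83649355) and Ccl4 (83662584 to 83664683) lie in that order on chromosome 11 of GRCm38, Ccl4 alone on the plus strand. Of 19 chemokine genes compared, 5 were at least 4-fold higher, Cxcl2 being the fifth, and 4 at least 4-fold lower, namely Ccl1, Ccl5, Cxcl9 and Xcl1. Without T cell-like cells in the comparison, Cxcl2 (1.12) and Ccl1 (-0.97) were within 4-fold on the log2 scale. Cxcl9 turned to the other direction, at 1.31, when all deposited barcodes were used. The list median was -0.85, below the -0.33 of all genes.

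Type 2 and gp130 family cytokines made up the next group. Il4 had 521 CPM in basophils and 3.75 in other Ptprc-positive cells, a log2 ratio of 7.12 (6.82 to 7.42). Il13 stood at 1201 against 26.0. Interleukin 4 drives IgE switching, and interleukin 4 and interleukin 13 drive tissue type 2 responses. Their genes neighbour each other on chromosome 11, Il4 at 53602982 to 53618669 and Il13 at 53631324 to 53634702. Il6 had 1752 against 21.96 CPM and Osm, which encodes oncostatin M, 1703 against 24.8. Lif, the third gp130 ligand, had 176 against 2.90.

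Growth factor transcripts were also high. Csf1, which encodes the macrophage growth factor M-CSF, stood at 974 against 42.5 CPM, and Hgf, which encodes hepatocyte growth factor, at 287 against 2.60. Il1b reached 1043 against 213, but its log2 ratio of 2.24 became 0.62 when T cell-like cells were left out of the comparison. Of 24 cytokine genes compared, these 8 were at least 4-fold higher, and Ifng, Il17a and Il17f at least 4-fold lower. Ifng, the type 1 cytokine of T cells, had 10.1 CPM in basophils and 228 in the others. The list median was 0.19 against -0.33 in all genes, and 0.73 with median-of-ratios scaling. Outside the naming rule, and chosen after its values were seen, Tnf did not stand apart, at 84.0 against 76.7 CPM and a log2 ratio of 0.13 (-0.20 to 0.45).

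Promoter windows of 4 genes are printed to show the sequence at the starts of the chemokine, cytokine and protease genes that led the ranking. Each has 300 bases around a RefSeq start on GRCm38.p6, on the gene's strand, here the minus strand for all 4. They lie at chr14:56085148-56085447 for Mcpt8, chr11:83649329-83649628 for Ccl3, chr11:53618616-53618915 for Il4 and chr11:53634653-53634952 for Il13. Capitals mark AGATAA or TGATAA on either strand, letters that GATA factors can bind.
Mcpt8: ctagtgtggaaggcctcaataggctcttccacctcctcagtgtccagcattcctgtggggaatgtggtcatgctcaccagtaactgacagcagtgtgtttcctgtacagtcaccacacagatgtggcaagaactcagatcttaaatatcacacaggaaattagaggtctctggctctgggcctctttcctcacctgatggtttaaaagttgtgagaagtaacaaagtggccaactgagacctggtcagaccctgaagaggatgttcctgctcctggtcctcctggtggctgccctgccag
Ccl3: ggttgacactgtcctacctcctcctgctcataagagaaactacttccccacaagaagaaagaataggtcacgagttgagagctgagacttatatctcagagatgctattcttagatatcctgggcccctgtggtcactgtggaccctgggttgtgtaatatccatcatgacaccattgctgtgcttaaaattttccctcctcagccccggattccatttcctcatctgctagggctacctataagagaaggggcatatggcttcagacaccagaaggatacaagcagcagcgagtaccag
Il4: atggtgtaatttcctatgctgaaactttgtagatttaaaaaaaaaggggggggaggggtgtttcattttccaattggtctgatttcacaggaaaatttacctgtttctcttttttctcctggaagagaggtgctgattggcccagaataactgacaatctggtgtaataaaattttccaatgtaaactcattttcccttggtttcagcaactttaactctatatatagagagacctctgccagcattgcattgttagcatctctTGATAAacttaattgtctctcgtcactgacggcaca
Il13: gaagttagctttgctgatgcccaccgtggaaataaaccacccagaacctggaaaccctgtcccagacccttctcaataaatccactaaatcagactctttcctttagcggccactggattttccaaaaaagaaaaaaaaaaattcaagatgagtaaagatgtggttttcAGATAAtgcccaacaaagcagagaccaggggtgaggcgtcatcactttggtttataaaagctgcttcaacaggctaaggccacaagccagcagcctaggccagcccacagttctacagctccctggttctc
These windows of Il4 and Il13 hold the letters once each, and those of Mcpt8 and Ccl3 hold neither. Il4 has another RefSeq start, with a window at chr11:53617289-53617588 that holds 0 matches and is not printed. RefSeq windows were found for 15 of the 20 genes with the highest ratios, 19 windows in all. A match lay in 7 of these 15 genes and in 7 of the 19 windows. No share by gene was taken over all genes, so the count by gene has no background beside it. By window, 18.1% of the 171 windows of the higher genes, 16.0% of the 169 of the lower genes, 10.3% of the 11855 of all genes compared and 18.6% of all 32851 windows had one. The higher and lower genes thus stood close to each other, and a match describes letters, not a bound site.

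Granule genes followed the identity genes. Hdc had 5179 CPM against 53.9, the rule gene Mcpt8 2171 against 5.73, and Srgn, which encodes the proteoglycan serglycin that packs granules, 9371 against 1679. Ctsg, which encodes cathepsin G, had 125.4 against 1.15, and Slc18a2, the vesicle transporter that loads histamine, 77.9 against 3.13. Of 13 granule genes compared, 7 were at least 4-fold higher and Cma1 lower, with a median of 2.47, but 5 of them were in the rule. Of the 8 others, 5 were at least 4-fold higher and 0 lower, with a median of 2.61. Prss34, a second basophil protease gene used in the rule, was uneven. It had 229 UMIs in 11 basophils, and 1 cell held 150 of them.

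Receptors for IgE and their signalling genes were the third group. Fcer1a, Ms4a2 and Fcer1g encode the α, β and γ chains of the high-affinity IgE receptor. Fcer1a had 265 CPM against 9.25, Ms4a2 323 against 6.35, and Fcer1g, which other myeloid cells share, 1726 against 297. Lat2, an adaptor downstream of the receptor, stood at 345 against 32.3. Of 17 genes compared, 7 were at least 4-fold higher and 0 lower, with a median of 1.35, and the other 3 were Btk, Fcgr3 and Gab2. Without T cell-like cells in the comparison, Fcer1g (1.17), Fcgr3 (1.52), Btk (1.77) and Gab2 (1.65) were below 4-fold on the log2 scale, while the α and β chain genes stayed above it.

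Among cytokine receptors, the 2 related β chain genes Csf2rb and Csf2rb2 stood apart. Csf2rb had 1271 CPM against 27.1 and Csf2rb2 709 against 10.4. Csf2rb encodes the common β chain of the receptors for IL-3, IL-5 and GM-CSF, and Csf2rb2 a β chain for IL-3. The near-identical sequence of the 2 genes can split reads between them, so their separate values are uncertain. Il2ra, Il2rb and Ifngr1 were at least 4-fold lower, and the median of 31 genes was -0.39. Il2ra was at -0.78 on the log2 scale without T cell-like cells. Il3ra, chosen after its values were seen, had 74.8 against 17.6. Il1rl1, the IL-33 receptor gene, had 50.6 against 10.6 CPM, and a log2 ratio of -2.25 (-2.79 to -1.71) to mast cell-like cells.

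Chemoattractant receptors gave 6 of 22 genes at least 4-fold higher, and Ccr2 and Ccr7 lower, with a median of 0.51. Ccr1, a receptor for CCL3 and CCL9, had 148 CPM against 9.98. The complement receptors C3ar1 and C5ar1, for C3a and C5a, had 99.1 against 2.17 and 103 against 4.31, and Cxcr2, a receptor for CXC chemokines, 105 against 4.18. The adenosine receptor genes Adora2b and Adora3 completed the 6. Of 22 adhesion genes, 5 were higher, namely the integrin genes Itga2b, Itgam and Itgb3 and the tetraspanin genes Cd9 and Cd63. Cd63, whose protein reaches the surface when granules fuse, had 1246 against 223 CPM. Cd9 and Cd63 were below 4-fold, at log2 ratios of 1.30 and 1.53, without T cell-like cells. Of 16 inhibitory and regulatory surface genes, 5 were higher, namely Cd200r1, Cd200r3, Cd200r4, Pirb and Lilrb4a, and Cd200r3 was in the rule. Pirb was at 1.44 on the log2 scale without T cell-like cells. Lilrb4a and the neighbour Lilr4b, both among the 20 highest, have near-identical sequence and are uncertain apart.

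Lipid mediator genes showed the leukotriene start and the COX-2 gene. Alox5ap, the protein that presents arachidonic acid to 5-lipoxygenase, had 2245 CPM against 97.6, Alox5 itself 95.1 against 5.04, Alox15 162 against 0.922, and Ptgs2 (COX-2) 565 against 58.1. Of 20 genes, 5 were at least 4-fold higher, including Ptger3, with 0 lower and a median of -0.12. Without T cell-like cells in the comparison, the log2 ratios of Ptgs2 (1.64) and Ptger3 (1.87) were below 4-fold. Ltc4s, the next enzyme towards leukotriene C4, and Hpgds, the synthase of prostaglandin D2, were chosen after their values were seen. Both had 0 UMIs in basophils, where 3 counts would be 3.03 CPM, and 14.8 and 14.1 CPM in the other cells.

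Transcription factor genes were divided. Gata2 had 1814 CPM against 16.9 and Cebpa 358 against 11.4. Cebpb had 4431 against 422, Runx1 598 against 91.9, Spi1, the gene of the myeloid factor PU.1, 176 against 31.0, and Nfil3 595 against 131. The 6 higher genes of 37 stood beside 4 lower ones, Gata3, Runx3, Irf8 and Id2, and the median was 0.02. Spi1 (0.86), Nfil3 (1.78) and Runx1 (1.98) were below 4-fold on the log2 scale without T cell-like cells, and Gata2, Cebpa and Cebpb were not. Cyp11a1, which makes pregnenolone from cholesterol, had 1655 against 15.6, while the other 6 steroid synthesis genes compared were within 4-fold. Among feedback genes of NF-κB, Ier3 had 6585 against 564 and was the only one of 17 at least 4-fold higher, with Traf1 lower. Ifitm1 was the only one of 23 interferon-response genes at least 4-fold higher, with 5031 against 445 CPM, and Gbp4 the only one lower, with 10.1 against 132, and the list median was -0.51. Gbp4 was at 0.0047 when all deposited barcodes were used.

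Antigen presentation and division genes were low. H2-Aa, an MHC class II chain, had 30.3 CPM against 660, and 6 of 10 MHC class II genes were at least 4-fold lower, with a median of -2.55. H2-Oa was at least 4-fold higher at 96.1 against 13.5, and just below that, at a log2 ratio of 1.94, without T cell-like cells. Cd74, the invariant chain, had 150 against 1816 CPM, and 20 basophils held 99.3% of its UMIs. The proliferation gene Mki67 had 0 UMIs against 91.9 CPM, at least 30.3-fold lower with 3 counts as the floor, and 7 of 14 cell cycle genes were at least 4-fold lower, with a median of -2.05. Without T cell-like cells in the comparison, the median was -1.28 and 6 of these 7 were within 4-fold, namely Top2a (-1.73), Rrm2 (-1.66), Cdk1 (-1.53), Ube2c (-1.50), Birc5 (-1.46) and Cenpf (-1.28). Of 13 survival genes, Bcl2a1a, Bcl2a1b and Bcl2a1d, close copies whose reads can be split, were the 3 at least 4-fold lower and 0 were higher, and Bcl2a1a was at -1.91 without T cell-like cells.

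**Figure D3:**
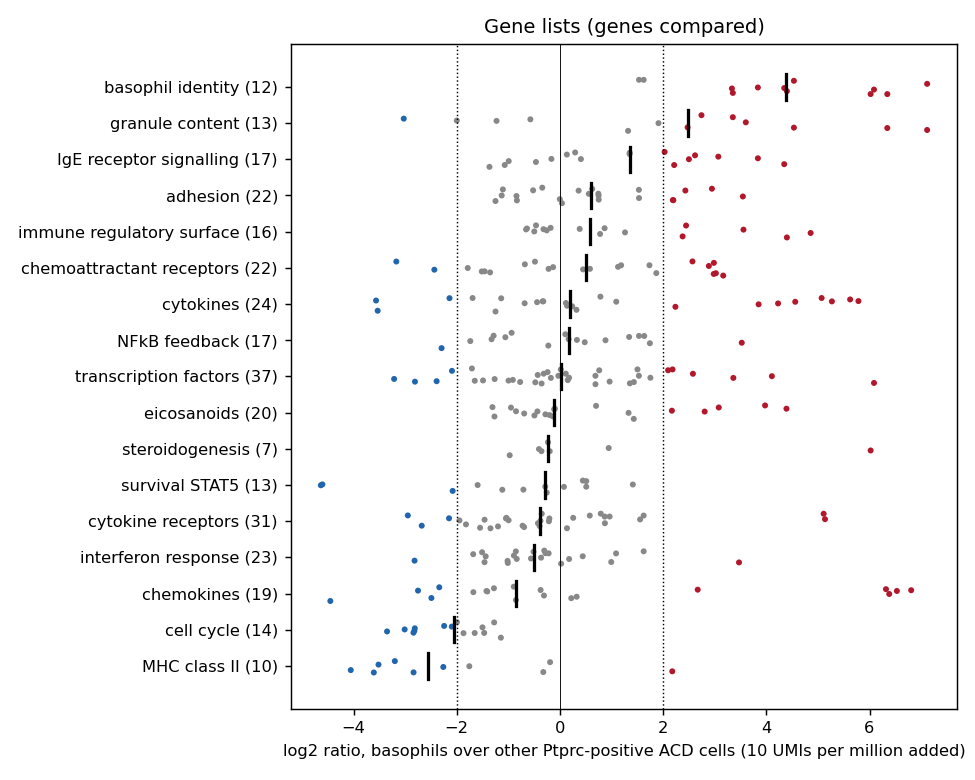
Log2 ratio of each gene (points, x axis, 10 CPM added) in basophils over other Ptprc-positive ACD cells, by gene list with the number compared, and list medians as black bars. Dotted lines mark 4-fold, red and blue points lie beyond them, and identity genes have the highest median at 4.37, partly set by the 3 rule genes among them (3.84 without these), and MHC class II genes the lowest at -2.55.

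Against the 144 mast cell-like cells, which were shallow with a median of 1730 UMIs, 2884 genes were compared. Of these, 273 were at least 4-fold higher in basophils (9.47%) and 132 lower (4.58%). Genes were filtered on UMIs summed over both sets, and basophils held 988731 UMIs against 312444 in mast cell-like cells. A gene high in basophils thus passed the filter more readily, which bears on both counts and on list medians. Both cell types held IgE receptor and histamine genes, but in different amounts. Fcer1a stood at 1696 CPM in mast cell-like cells and 265 in basophils, and Ms4a2 at 1015 and 323. Cpa3, the mast cell carboxypeptidase gene, stood at 5751 and 430, while Hdc went the other way at 672 and 5179. Gata2 and Csf2rb differed less, at 714 and 1814 and at 816 and 1271.

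Chemokine genes differed in both directions between these cell types. Ccl3 and Ccl4 were at 9.60 and 25.6 CPM in mast cell-like cells. Ccl7, a monocyte chemokine, was at 4487 there and 114 in basophils. Over the 9 of 24 chemokine genes that passed the filter, the median log2 ratio to mast cell-like cells was 4.44, beside 0.03 over all genes. The filter favours genes high in basophils, so this median describes the genes that passed only. Kit, chosen after its values were seen, had 7.08 CPM in basophils and a log2 ratio of -6.51 (-7.85 to -5.44) to mast cell-like cells.

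**Figure D4:**
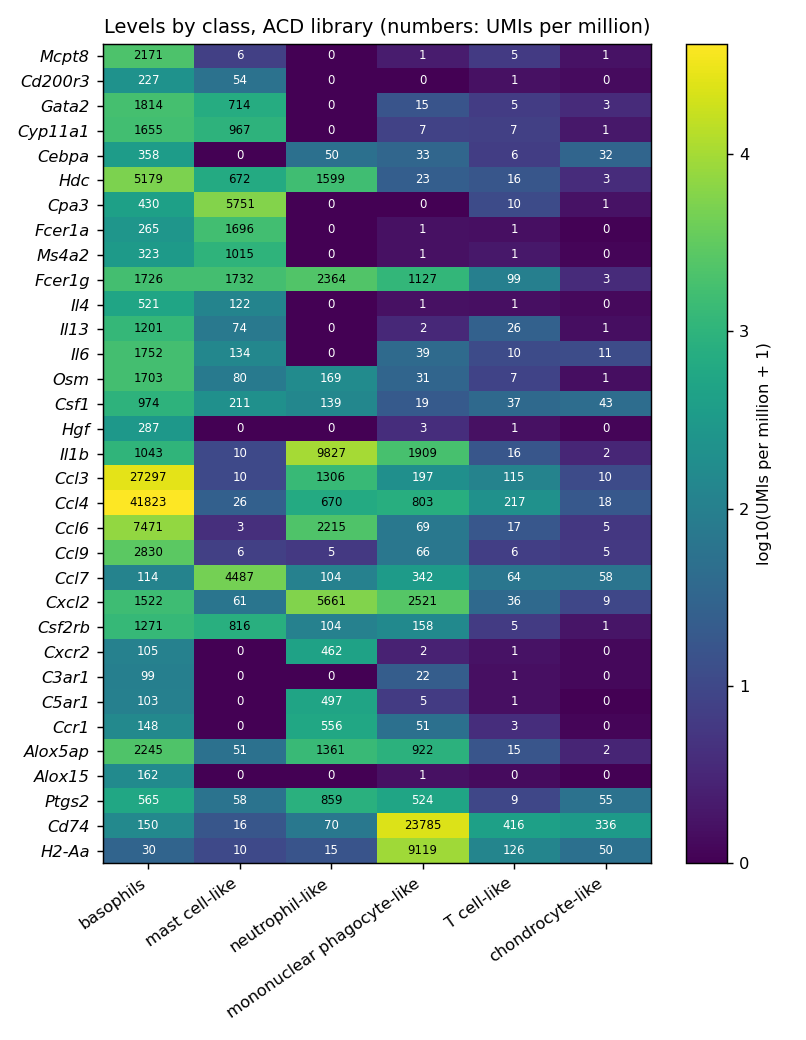
Levels of 33 genes (rows) in basophils and 5 marker-gated ACD classes (columns), colored by log10 of CPM plus 1 and printed as CPM. Basophils carry the highest Ccl3, Ccl4, Ccl6, Ccl9, Il4, Il13 and Il6, mast cell-like cells the highest Fcer1a, Ms4a2 and Cpa3, and neutrophil-like cells the highest Il1b and Cxcl2.

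Basophils held 0.992% of all UMIs of the kept ACD cells, yet most of the UMIs of several genes outside the rule. They held 82.5% (74.2 to 88.9) of Grm6 UMIs, 73.2% of Ccl6 and 73.2% of Il4. Alox15 (72.1%), Ccl9 (70.6%), Hdc (67.7%) and Ccl3 (66.5%) followed. Il13 had 55.8% of its UMIs in basophils and Il6 29.3%, so Il6 came mostly from other cells of the library. Of the rule genes, Prss34 had 93.9%, Mcpt8 89.9% and Cd200r3 75.9%. As a background level, chondrocyte-like cells, which should lack these genes, held Ccl4 at 18.0 and Ccl3 at 10.1 CPM.

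Shares of cells with a UMI were taken after each cell was drawn down to 2000 UMIs, which left 203 basophils and left out 1. Ccl3 was found in 99.5% of basophils, Hdc in 99.01%, Ccl6 in 96.6% and Ccl4 in 96.6%. Gata2 (92.1%) and Cyp11a1 (92.6%) were nearly as common, so the core program was shared by almost all cells. Il6 was found in 84.2%, Osm in 80.3%, Il13 in 52.2% and Il4 in 36.9%. Without drawing down, the shares were 95.1% for Il6, 91.2% for Osm, 65.2% for Il13 and 51.0% for Il4. In chondrocyte-like cells, with a median of 10373 UMIs before drawing down, the same 4 genes were found in 1.30%, 0.259%, 0.259% and 0.0865% at 2000 UMIs.

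**Figure D5:**
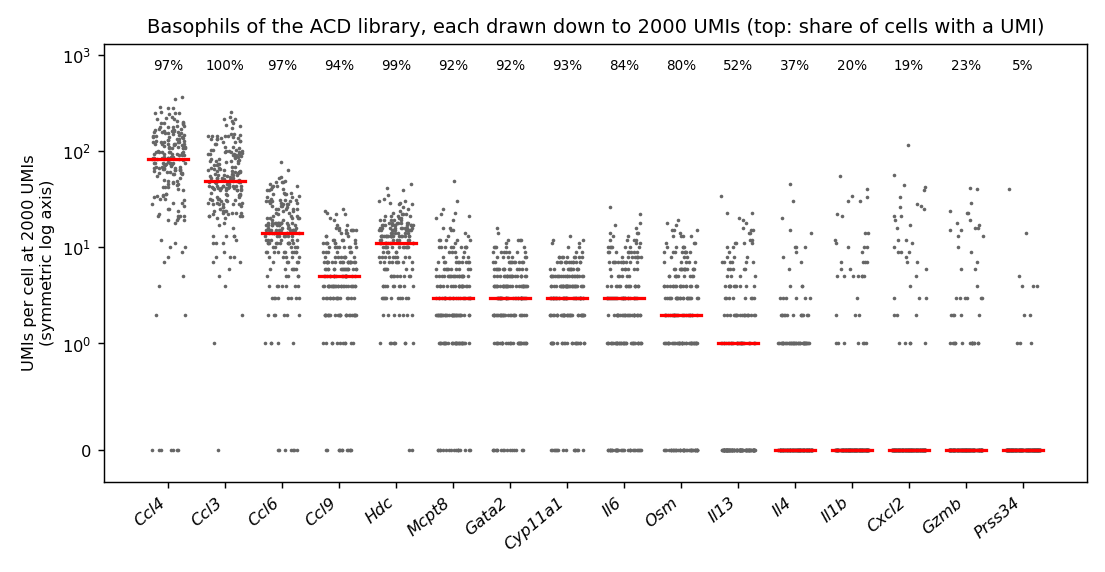
UMIs per basophil after each cell was drawn down to 2000 UMIs (y axis, symmetric log scale) for 16 genes, with 1 point per cell, the median as a red bar and the share of 203 cells with a UMI on top. Ccl4 has a median of 83 and Ccl3 of 49 UMIs, whereas the medians of Il4, Il1b, Cxcl2, Gzmb and Prss34 are 0. The highest single cell of these genes has 46, 55, 115, 41 and 40 UMIs in that order.

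Of Il4, Il13, Il6 and Osm, 38 basophils (18.7%) showed all 4, 73 showed 3, 59 showed 2, 26 showed 1 and 7 showed 0. Il4 and Il13 were found together in 49 cells, against 39.2 that the product of their shares gives. Il4 and Lif met in 17 cells against 12.2 and Il4 and Il1b in 20 against 14.8, while Il4 and Hgf met in 27 against 31.4. Il6 and Osm, each found in most cells, were together in 143 against 137. These counts were taken in the drawn-down cells, so depth was equal in every cell. Whether the pairs differ from the product of their shares beyond counting error was not tested.

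Variation differed between genes. At 2000 UMIs, the variance over the mean across cells was highest for Ccl4 (49.96), Msmp (41.7), Cxcl2 (39.98), Ccl3 (36.7), Dcn (24.9), the rule gene Prss34 (23.8), Il1b (22.8), H3f3b (20.2), Ftl1 (19.98) and Gzmb (18.8). This measure tends to rise with a gene's level, so the order is not one of relative spread. Ccl4 held 19490 UMIs in these drawn-down cells and Il1b 446. Ccl4 and Ccl3 varied at high levels in nearly every cell. Il1b was in 19.7% of cells, Cxcl2 in 19.2% and Gzmb, the gene of the cytotoxic protease granzyme B, in 23.2%. The 20 basophils with the most UMIs of each gene held 86.1% of Il1b, 91.0% of Cxcl2, 86.5% of Gzmb and 71.1% of Il4 UMIs. A minority of cells thus held most UMIs of these genes, although Il4 was found in 36.9% of cells at 2000 UMIs.

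Il1b and Cxcl2 were found together in 17 basophils against 7.68 by the product of their shares, and Il1b with Ptgs2 in 23 against 15.2. Neutrophil-like cells held more of both, at 9827 CPM of Il1b and 5661 of Cxcl2. Of the 20 basophils with the most Il1b, 0 held 3 or more UMIs of the 9 neutrophil markers and 2 held 3 or more of the 12 phagocyte markers. Fibroblast markers reached 3 UMIs in 5 of these 20 and T and NK cell markers in 1. Each of the 20 had at least 6 Hdc UMIs. Prss34 and Gzmb were together in 7 cells against 2.55. Prss34 was in the rule and was found in only 11 cells, so this pair depends in part on the choice of cells. Dcn is a fibroblast gene, and Msmp was 4-fold higher only with the 56 basophils carrying other-class UMIs, its log2 ratio being -2.51 without them. The variance over the mean of Prss34 dropped to 5.71 without them.

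The 2 control basophils held 11630 and 4448 UMIs. The first had 15 marker UMIs with 33 fibroblast UMIs, 1 Gata2 UMI and 0 of Cyp11a1, and the second had 4 marker UMIs with 18 of Gata2 and 8 of Cyp11a1. Ccl3 had 75 and 93 UMIs in them, Ccl4 82 and 129, and Hdc 23 in each, so the chemokine genes were also present there. Il4 had 0 UMIs in both and Il13 0 and 3. At this number of cells no ratio of ACD to control levels within basophils was formed.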

How the data were processed

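Single-cell RNA-seq of ear skin was measured in 1 control and 1 ACD library. The authors aligned reads to mm10 with Cell Ranger (3.1.0 in the submitters' processing notes) and deposited raw UMI counts for each gene in each barcode, which were analysed as they are. Kept were cells with 201 to 4999 genes, below 8% of UMIs from mitochondrial genes, and no more than 25000 UMIs. That last limit is written the other way round in the methods, and more cells passed than the study reports analysing. Doublets were not called.

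Members and lists were chosen with earlier results of these data known. Classes were gated on markers: mast cell-like (at least 10 UMIs of Cma1, Mcpt4 and Tpsb2), neutrophil-like (at least 20 of S100a8 and S100a9), mononuclear phagocyte-like (at least 20 of H2-Ab1, H2-Aa and Cd74), T cell-like (at least 3 of the Cd3 genes) and chondrocyte-like (at least 10 of Acan, Col2a1 and Comp), with further limits, and cells in more than 1 gate left out. Of 416 list genes, 414 were in the annotation of 27998 genes. A symbol with 2 identifiers was read from the first.

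Python 3.11.15, numpy 2.4.6, scipy 1.17.1, pandas 2.3.3 and matplotlib 3.10.9 were used. Intervals were exact (Poisson for sums, Clopper-Pearson for shares, conditional binomial for ratios, without added UMIs). Interval code and drawing down were tested on simulated data. Genes named were the 20 highest and 10 lowest ratios, in each of 17 lists the 6 highest levels and all genes past 4-fold, the 10 most variable, the 10 with the highest part in basophils, and the rule's genes; others are marked. Positions are from GENCODE on GRCm38. No test of conditions was possible, and replicate error is unknown.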

Additional observations from a re-analysis of the deposited data

How the results depend on the processing

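The results were recomputed under 15 alternatives and 2 more chosen after seeing the data, which were comparison cells with 0 marker UMIs and basophils with a Ptprc UMI. The basophil share of 1.75% was 2.01% with at least 2 marker UMIs, 1.17% with at least 6 and 1.27% without basophils carrying other-class UMIs. That last setting gave 454 genes at least 4-fold lower. Median-of-ratios size factors gave 273 higher and 104 lower genes, so 72.4% of calls were higher against 49.6%, and 1 CPM added gave 273 and 1312 (17.2% higher). The higher part was 30.7% without basophils carrying other-class UMIs. Of 110 named genes past 4-fold, 65 stayed past it in all 17 alternatives, and most losses came with all other kept cells (27) or without T cell-like cells (28) as comparison. Reversed were Msmp (-2.51 without basophils carrying other-class UMIs, -2.81 in those with a Ptprc UMI), and Cxcl9 (1.31) and Gbp4 (0.0047) with all deposited barcodes. The cause was not tested. Of 17 list medians, the signs of chemokines, eicosanoids, immune surface, transcription factor, NF-κB, survival and steroidogenesis lists changed in some alternative. The chemokine median was 0.22 with at least 2 marker UMIs. Il4 was found in 25.5% and Il6 in 69.6% of cells at 1000 UMIs. No paired analysis was possible because each condition had 1 library.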
